A study of Drosophila melanogaster with 8 samples.

Results

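Hearts of old flies from the GMH5 by FOXO cross were set against hearts of young flies from the control cross, GMH5 by yw, to ask which of their transcripts stood at the young control level and which did not. The rule took the 2 arrays of the GMH5xFOXO cross at 5 weeks and the 2 arrays of the GMH5xyw cross at 1 week, 4 of the 8 arrays in the series, and all 18769 probe sets that were not array controls. The 2 arrays of GMH5xyw at 5 weeks are shown beside them. These groups are called FOXO 5 weeks, control 5 weeks and control 1 week below. The study used adult Drosophila melanogaster, labelled female, kept on molasses, cornmeal and agar food, and its title concerns raised FOXO and protein quality control in the ageing heart. All groups carry GMH5, a GAL4 driver active in heart cells, so no group shows a heart without the driver. Fat and pericardial cells were drawn off the opened heart tubes by suction before the hearts were taken, and the RNA was amplified before hybridisation. The labels give neither the FOXO transgene, nor the number of flies behind an array, nor whether 2 arrays of a group came from separate flies. The p-values therefore measure only the spread between arrays, which may be technical. Cross and age differ together between FOXO 5 weeks and control 1 week, and cannot be told apart in that comparison.

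FOXO is a transcription factor that insulin signalling keeps out of the nucleus, and it is known in flies for raising stress resistance, fat breakdown and protein quality control when insulin signalling is low. The fly heart is a muscular tube built of cardiomyocytes and flanked by pericardial nephrocytes, and its beat depends on calcium release, ion channels and the sarcomere. Its identity is set by factors such as Hand, pannier, H15, midline and the Dorsocross genes. Flies age quickly, and the beat of their hearts becomes less regular as they do.

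Levels are the deposited log2 signal, 1 value per probe set, and a log2 difference of 1 is a 2-fold difference. Array medians lay between 6.05 and 6.43, and were highest in FOXO 5 weeks and lowest in control 5 weeks. Replicates of these groups correlated across probe sets at 0.995 to 0.997, against 0.963 in the FOXO arrays at 1 week, which were left out of the main model. Of the heart markers, Hand and the sarcomere genes were high on the 6 arrays. Hand lay between 13.06 and 13.33, and the list of 28 sarcomere genes had a median level between 11.24 and 11.93. The list of 14 cardiac transcription factors, which holds Hand, had a median level nearer the array medians. It was 6.45 and 6.50 in FOXO 5 weeks, 6.86 and 6.86 in control 5 weeks and 7.41 and 7.43 in control 1 week. The label female was set against sex-specific transcripts before anything else. The median level of 6 female-specific transcripts (yolk proteins and enzymes of female hydrocarbons) lay between 12.97 and 13.23 on the 4 arrays of FOXO 5 weeks and control 5 weeks, but was 7.67 and 7.43 in control 1 week. The median level of 36 late spermatogenesis transcripts was 9.64 and 9.44 in FOXO 5 weeks, 5.03 and 4.71 in control 5 weeks, and 8.19 and 8.11 in control 1 week. The median level of 24 accessory gland transcripts was 3.85 and 3.95 in FOXO 5 weeks, 4.27 and 4.39 in control 5 weeks, and 5.95 and 5.38 in control 1 week. Control 1 week thus read low in female transcripts and above control 5 weeks in sperm and seminal ones, against its label. Its seminal median lay below its array medians of 6.22 and 6.20. Other male lists did not stand out in control 1 week. Y-linked fertility genes had a median of 3.06 and 3.06 there, against 2.96 and 3.02 in control 5 weeks. Spermatocyte transcription genes read 4.66 and 4.92 against 5.06 and 5.06, and msl-2, of male dosage compensation, 8.98 and 8.94 against 9.02 and 8.98. FOXO 5 weeks read high in both female and sperm transcripts. The share of each sex or of reproductive tissue behind an array and the group cannot be told apart, and the part of these transcripts in the other results was not tested. In bulk RNA, fewer cells of a type and less RNA per cell cannot be told apart either.

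The foxo transcript, the gene the cross is named for, was measured by 1 probe set. It read 10.22 and 10.24 in FOXO 5 weeks, 10.32 and 10.44 in control 5 weeks and 10.68 and 10.75 in control 1 week. Both FOXO 5 weeks arrays lay below all 4 control arrays. The difference from control 1 week was -0.48 ± 0.12 on the log2 scale (limma, adjusted p = 0.0222), and it lost the call when any 1 array of FOXO 5 weeks or control 1 week was left out (adjusted p 0.0514 to 0.144) and with all 8 arrays in the model (adjusted p = 0.131). Against control 5 weeks it was -0.15 ± 0.12 (adjusted p = 0.394), and the foxo probe set was not higher in the FOXO cross. Whether the transgene carries the sequence this probe set reads is not known here.

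Of the 18769 probe sets, 2100 (11.2%) were higher and 2406 (12.8%) lower in FOXO 5 weeks than in control 1 week at an adjusted p under 0.05 (limma). Together they made 24.0% of the probe sets. A probe set was counted as at the young control level where the 95% interval of its difference lay inside 2-fold either way, and 15056 (80.2%) did. Of these, 13696 did not pass the test, while 440 were higher and 920 lower by less than 2-fold. A further 567 could be placed neither way, since their interval was wider and they did not pass the test. Control 5 weeks had 1491 higher (7.94%) and 1788 lower (9.53%) against the same control 1 week arrays, and 84.8% of its probe sets were within 2-fold. FOXO 5 weeks against control 5 weeks gave 1784 higher (9.51%) and 2494 lower (13.3%), and 81.6% were within 2-fold. Either way the calls made 17.5% of the probe sets in the control comparison and 22.8% in the comparison at 5 weeks. The comparisons share arrays, so their counts are not independent.

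The probe sets farthest from the young level were mostly higher. Among those past the test, 1201 were higher and 699 lower by more than 1 on the log2 scale, 555 against 74 by more than 2, and 129 against 15 by more than 3. The balance of calls of any size depended on the centring of the arrays. Setting the array medians equal moved every difference by -0.20 and the median over all probe sets to -0.28, against -0.08 as deposited. The calls of any size were then 1654 higher and 5755 lower, so 22.3% of them were higher, against 46.6% as deposited. With all 8 arrays in the model the calls were 1253 higher and 816 lower, 60.6% of them higher. Without control 1 week replicate 1 or 2, or without FOXO 5 weeks replicate 1, more calls were higher than lower.

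**Figure D1:**
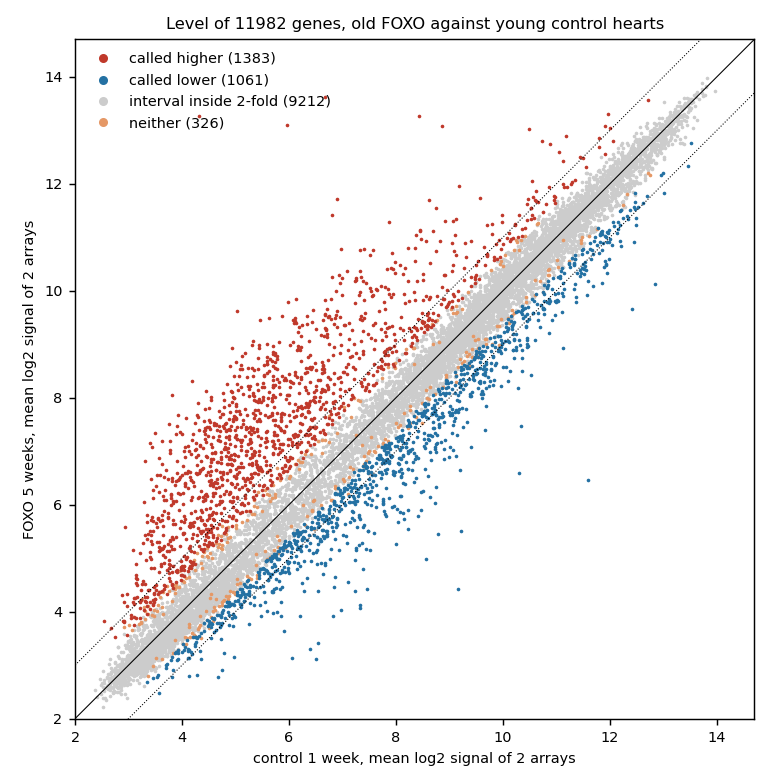
Mean log2 signal of 11982 genes, 1 probe set each, in FOXO 5 weeks (vertical axis) and control 1 week (horizontal axis), with the line of equal level and dotted lines at 2-fold either way. Grey marks the 9212 genes whose interval lay inside 2-fold; red and blue mark called genes outside it, 1383 higher and 1061 lower, and orange the 326 that were neither. The red points reach farther from the line than the blue ones, mostly at low levels in control 1 week.

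Over genes, 1719 of 11982 (14.3%) were higher, 1653 (13.8%) were lower and 9212 (76.9%) were within 2-fold of the young level. For control 5 weeks against control 1 week 9.5% of genes were higher, 12.8% lower and 81.5% within 2-fold. For FOXO 5 weeks against control 5 weeks 12.9% were higher, 13.7% lower and 78.2% within 2-fold. These shares are the background for the gene lists below.

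Genes that stood at the young level while control 5 weeks stood far away were named by how far the control 5 weeks mean lay from the other groups. They are a description with no test of that distance. Muc11A, a mucin, read 4.70 and 4.62 in FOXO 5 weeks, 10.69 and 11.32 in control 5 weeks and 4.73 and 4.28 in control 1 week. CG34296 read 4.69 and 4.71 in FOXO 5 weeks, 8.83 and 8.95 in control 5 weeks and 4.14 and 4.59 in control 1 week. In both genes the FOXO 5 weeks arrays lay with the young arrays and at least 4 log2 units below the old control arrays. Scp2, a calcium-binding protein of muscle sarcoplasm, read 3.76 and 3.63 in FOXO 5 weeks, 6.17 and 6.70 in control 5 weeks and 4.0 and 3.14 in control 1 week. Lsp2, a storage protein of the fat body, read 7.62 and 7.84 in FOXO 5 weeks, 10.43 and 10.46 in control 5 weeks and 8.33 and 8.23 in control 1 week. Lsp2 passed the test as -0.55 ± 0.13 against control 1 week (adjusted p = 0.0184), which it lost with 1 array left out (adjusted p up to 0.123), so its FOXO 5 weeks level was slightly below the young one. The gustatory receptor Gr66a, which detects bitter compounds, read 5.95 and 5.35 in FOXO 5 weeks, 7.57 and 7.75 in control 5 weeks and 5.38 and 5.19 in control 1 week. The enzymes Cyp6g2 and Ugt50B3, both of detoxification families, and CG16762, CG6295 and CG14963 also stood highest in control 5 weeks. None of them was called in FOXO 5 weeks against control 1 week. Of these 10 genes, 5 stayed within 2-fold of the young level in every alternative tried.

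The other direction was wider in level. CG8517 read 10.53 and 10.47 in FOXO 5 weeks, 5.16 and 5.05 in control 5 weeks and 10.59 and 10.70 in control 1 week. CG2127 read 9.88 and 9.77 in FOXO 5 weeks, 4.39 and 4.37 in control 5 weeks and 9.89 and 9.74 in control 1 week. CG8701 read 11.88 and 11.83 in FOXO 5 weeks, 6.63 and 6.70 in control 5 weeks and 11.80 and 11.91 in control 1 week. Each was at the young level in FOXO 5 weeks and about 5 log2 units lower in control 5 weeks, with no overlap. The late spermatogenesis transcripts described below were also lowest in control 5 weeks, with 29 of 36 lower there than in control 1 week. The part of testis tissue in CG8517, CG2127 and CG8701 was not tested. Mst98Cb, a male-specific transcript of the testis, read 10.21 and 9.98 in FOXO 5 weeks, 4.67 and 4.69 in control 5 weeks and 9.31 and 9.57 in control 1 week. Its difference from control 1 week was 0.66 ± 0.14 (adjusted p = 0.0147), a call that was lost with 1 array left out (adjusted p up to 0.113). CG12860 differed from control 1 week by 0.03 ± 0.12, CG34168 by -0.04 ± 0.20, CG9016 by 0.05 ± 0.18 and CG14926 by 0.39 ± 0.21, and none of these passed the test. CG46298 differed by 0.30 ± 0.16 without a call, and CG1394 by 0.55 ± 0.13 with one that was lost with 1 array left out (adjusted p up to 0.150). Of the 10 genes in this direction, 3 stayed within 2-fold in every alternative.

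**Figure D2:**
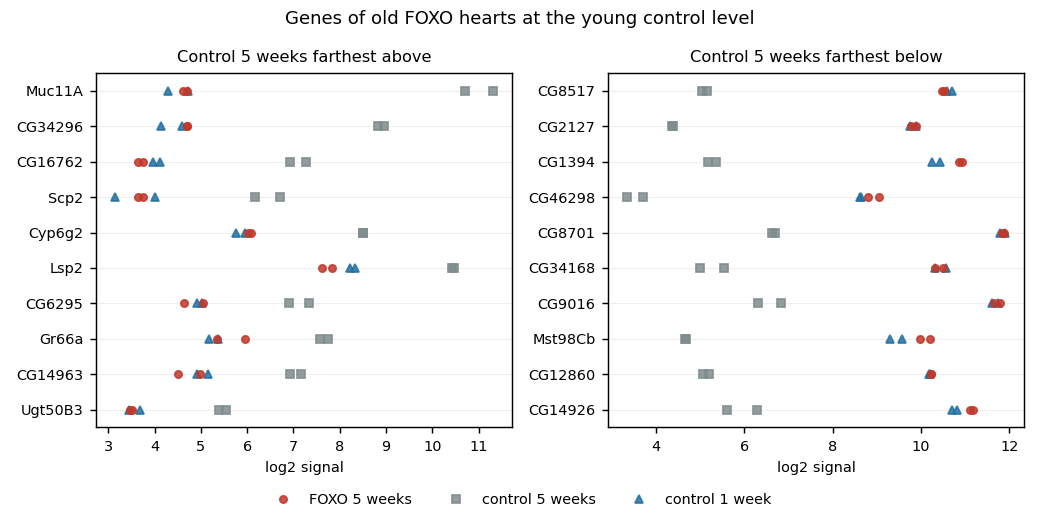
Log2 signal on each array for the 10 genes within 2-fold of the young level whose control 5 weeks mean lay farthest above (left) and the 10 farthest below (right). Red circles are FOXO 5 weeks, grey squares control 5 weeks and blue triangles control 1 week, 2 arrays each. The interval of red against blue lies inside 2-fold in every row, although Lsp2, Mst98Cb and CG1394 passed the test. Grey lies apart, by 1.90 to 6.50 log2 units above control 1 week on the left.

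The 4 largest rises over the young level were in female-specific transcripts. Fad2, the desaturase that makes female pheromone hydrocarbons, read 13.38 and 13.14 in FOXO 5 weeks, 13.03 and 13.04 in control 5 weeks and 4.20 and 4.41 in control 1 week, a difference of 8.95 ± 0.14 (adjusted p = 3.2e-07). Yp2, a yolk protein, read 12.97 and 13.24 in FOXO 5 weeks, 12.90 and 12.97 in control 5 weeks and 5.84 and 6.09 in control 1 week. Its difference was 7.14 ± 0.15 (adjusted p = 9.01e-07), that of Yp3 was 6.95 ± 0.13, that of Yp1 was 4.83 ± 0.15 and that of eloF, an elongase of the same hydrocarbon pathway, was 4.22 ± 0.12. In these 5 genes both old groups lay together far above control 1 week. With all 8 arrays in the model Fad2, Yp1, Yp2 and Yp3 lost the call (adjusted p 0.0505, 0.169, 0.0677 and 0.0957), and eloF kept it. That model takes in the 2 FOXO 1 week arrays, on which the 6 female-specific transcripts had a median level of 13.33 and 6.36. Nazo, an antiviral gene, read 9.44 and 9.80 in FOXO 5 weeks, 8.98 and 9.41 in control 5 weeks and 4.72 and 5.34 in control 1 week, a difference of 4.59 ± 0.25 (adjusted p = 1.98e-05). CG4269 read 11.36 and 11.46 in FOXO 5 weeks, 10.85 and 10.81 in control 5 weeks and 6.77 and 6.84 in control 1 week. Obp56d, an odorant-binding protein, read 11.67 and 11.75 in FOXO 5 weeks, 9.03 and 9.39 in control 5 weeks and 6.79 and 7.02 in control 1 week, so that the FOXO 5 weeks arrays lay above the old controls and both above the young ones. Its difference from the young level was 4.81 ± 0.16 and that from control 5 weeks 2.50 ± 0.16.

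The 2 largest falls below the young level were in cuticle proteins. Cpr49Ae read 6.63 and 6.28 in FOXO 5 weeks, 8.57 and 8.41 in control 5 weeks and 11.66 and 11.50 in control 1 week, a difference of -5.13 ± 0.15 (adjusted p = 6.89e-06). Cpr65Au read 4.34 and 4.50 in FOXO 5 weeks, 6.63 and 6.55 in control 5 weeks and 9.39 and 8.94 in control 1 week, a difference of -4.74 ± 0.17, and Cpr100A differed by -3.20 ± 0.26. In these genes control 5 weeks lay between FOXO 5 weeks and control 1 week, and no groups overlapped. CG7409 read 6.76 and 6.43 in FOXO 5 weeks, 8.34 and 8.46 in control 5 weeks and 10.31 and 10.29 in control 1 week and showed the same order. Cyp6a17, a cytochrome P450, read 3.15 and 3.09 in FOXO 5 weeks, 4.36 and 4.80 in control 5 weeks and 6.41 and 6.61 in control 1 week, a difference of -3.39 ± 0.17. TkR99D, a receptor for tachykinin peptides, differed by -3.35 ± 0.15 and Acp53C14b, a seminal protein, by -3.12 ± 0.26. All 10 of the largest falls except cas kept their calls in every alternative.

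**Figure D3:**
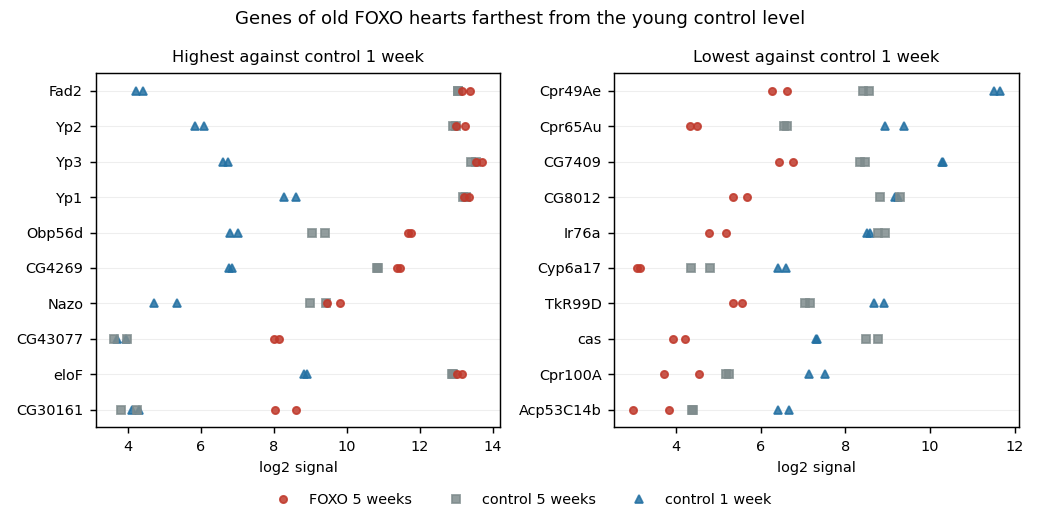
Log2 signal on each array for the 10 genes highest (left) and the 10 lowest (right) in FOXO 5 weeks against control 1 week. Red circles are FOXO 5 weeks, grey squares control 5 weeks and blue triangles control 1 week, 2 arrays each. Fad2 and the 3 yolk proteins read near 13 in both old groups and between 4.20 and 8.59 in control 1 week.

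Some genes stood away from both control ages. CG43077 read 8.0 and 8.12 in FOXO 5 weeks, 3.62 and 3.97 in control 5 weeks and 3.70 and 3.93 in control 1 week, a difference of 4.24 ± 0.16 from the young level and 4.26 ± 0.16 from the old control. ATPsynCF6L, a relative of a subunit of the mitochondrial ATP synthase, read 9.0 and 8.86 in FOXO 5 weeks, 4.21 and 4.51 in control 5 weeks and 5.02 and 4.85 in control 1 week. Its difference from control 1 week was 3.99 ± 0.15 (adjusted p = 7.99e-06). CG30161, CG31802 and CG33309 were higher than control 1 week by 4.12 ± 0.22, 3.86 ± 0.14 and 3.85 ± 0.18, and both FOXO 5 weeks arrays lay above all 4 control arrays in each. The testis copies of proteasome genes, described below, also stood above both control ages. Their median level was 7.12 and 6.54 in FOXO 5 weeks, 4.05 and 3.66 in control 5 weeks and 4.52 and 4.34 in control 1 week. The part of testis tissue in ATPsynCF6L and the other genes named here was not tested. Below both ages, the ionotropic receptor Ir76a read 4.79 and 5.19 in FOXO 5 weeks, 8.78 and 8.94 in control 5 weeks and 8.59 and 8.52 in control 1 week, a difference of -3.57 ± 0.16 (adjusted p = 1.16e-05). CG8012 read 5.34 and 5.69 in FOXO 5 weeks, 8.83 and 9.30 in control 5 weeks and 9.18 and 9.24 in control 1 week. The zinc finger factor cas, known from neural stem cells, read 3.92 and 4.22 in FOXO 5 weeks, 8.48 and 8.77 in control 5 weeks and 7.34 and 7.31 in control 1 week, and its call against control 1 week (adjusted p = 1.33e-05) was lost with all 8 arrays (adjusted p = 0.106). Ugt37B1, of a detoxification family, differed by -2.63 ± 0.12 and lost its call with all 8 arrays (adjusted p = 0.0537). Rnf11 differed by -2.73 ± 0.12 on the probe set used and by 0.00 on its other probe set, so its change is uncertain.

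The gene lists are read against the gene background of 14.3% higher and 13.8% lower. They were described by counts and medians, and the median over all genes was -0.04. That background is as deposited, where 2100 of 18769 probe sets were higher and 2406 lower. With array medians set equal 1654 were higher and 5755 lower, and the median over all genes was -0.25. With all 8 arrays 1253 were higher and 816 lower. List counts in those 2 settings are to be read against these numbers.

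**Figure D4:**
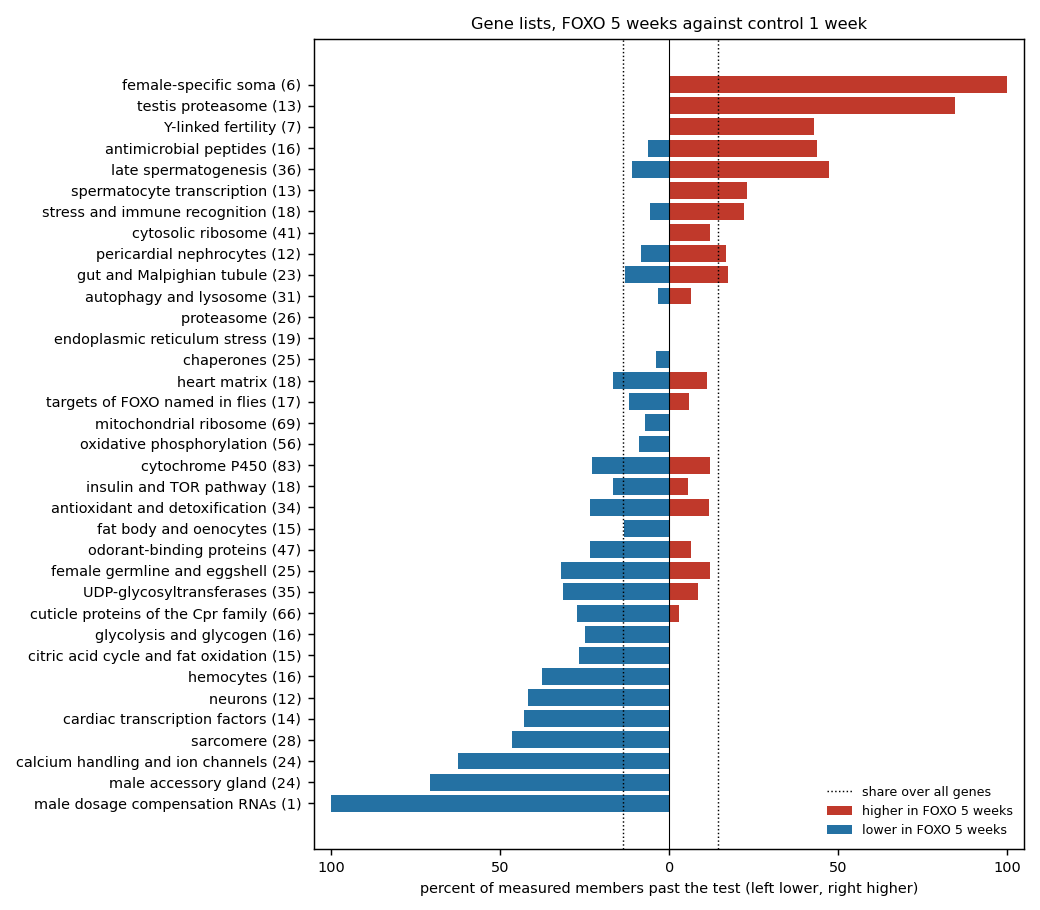
Percent of the measured members of each gene list that passed the test in FOXO 5 weeks against control 1 week, higher to the right and lower to the left, with the number of measured members in brackets and dotted lines at the shares over all 11982 genes. Female-specific and testis proteasome transcripts lie farthest to the right, and accessory gland, calcium and sarcomere transcripts farthest to the left among lists of more than 1 gene.

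Among 14 cardiac transcription factors, 6 were lower, none was higher and 8 were within 2-fold, with a median difference of -0.29. Hand, which marks all heart cells, read 13.27 and 13.09 in FOXO 5 weeks, 13.33 and 13.17 in control 5 weeks and 13.22 and 13.06 in control 1 week, and the groups overlapped. The GATA factor pnr and its cofactor ush differed from control 1 week by -0.17 ± 0.15 and -0.01 ± 0.14, without a call. H15, a T-box factor of the heart, read 9.61 and 9.98 in FOXO 5 weeks, 10.09 and 9.90 in control 5 weeks and 11.10 and 10.87 in control 1 week, a difference of -1.19 ± 0.17 (adjusted p = 0.00163). Its partner mid read 7.40 and 6.90 in FOXO 5 weeks, 7.98 and 7.52 in control 5 weeks and 8.69 and 8.45 in control 1 week, a difference of -1.42 ± 0.22. The homeobox gene lbl read 5.60 and 5.94 in FOXO 5 weeks, 6.63 and 6.73 in control 5 weeks and 7.28 and 7.32 in control 1 week, a difference of -1.53 ± 0.14 (adjusted p = 0.000218), and Doc3 and Doc1, of the Dorsocross genes, differed by -1.29 ± 0.15 and -1.13 ± 0.17. In H15, mid, Doc1, Doc3 and lbl both old groups lay below the young arrays. The sixth, tup, differed by -0.89 ± 0.19 and lost its call with 1 array left out (adjusted p up to 0.0694). Control 5 weeks had 6 of the 14 lower than control 1 week and none higher, and FOXO 5 weeks had 2 lower than control 5 weeks. The orphan receptor svp, which marks the ostia, differed by 0.03 ± 0.24 on the probe set used and by -0.52 on another that passed the test.

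Among 24 genes of calcium handling and ion channels, 15 were lower and none higher, with a median of -0.68. With all 8 arrays 8 were lower. The calcium release channel RyR read 9.69 and 10.08 in FOXO 5 weeks, 10.14 and 10.21 in control 5 weeks and 11.45 and 11.29 in control 1 week, a difference of -1.48 ± 0.16 (adjusted p = 0.000392). The sodium and calcium exchanger Calx read 7.30 and 6.67 in FOXO 5 weeks, 7.84 and 7.72 in control 5 weeks and 8.77 and 8.74 in control 1 week, a difference of -1.77 ± 0.20. The L-type calcium channel subunit Ca-alpha1D read 8.58 and 8.64 in FOXO 5 weeks, 8.83 and 9.14 in control 5 weeks and 9.83 and 9.88 in control 1 week, a difference of -1.25 ± 0.14 whose call was lost with all 8 arrays (adjusted p = 0.148). In RyR, Calx and Ca-alpha1D the control 5 weeks arrays lay between those of FOXO 5 weeks and control 1 week, with no overlap. The potassium channel SK differed by -1.07 ± 0.15 (2 of its 3 other probe sets were also lower, by -0.64 and -0.50, and the third was not called), and Elk differed by -0.91 ± 0.13, a call lost with all 8 arrays (adjusted p = 0.0912). The inward rectifier Irk3, chosen after its values were seen, read 4.34 and 4.11 in FOXO 5 weeks, 5.68 and 5.51 in control 5 weeks and 4.36 and 4.39 in control 1 week. The FOXO 5 weeks difference was -0.15 ± 0.13 from the young level and -1.37 ± 0.13 from control 5 weeks. Control 5 weeks had 9 of the 24 lower and 1 higher against control 1 week.

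Of 28 sarcomere genes, 13 were lower, none was higher and 22 were within 2-fold, with a median of -0.38. The lower count was 6 with all 8 arrays and 21 with array medians set equal. TpnC41C, a troponin C, read 5.48 and 5.54 in FOXO 5 weeks, 5.38 and 5.78 in control 5 weeks and 7.39 and 7.58 in control 1 week, a difference of -1.97 ± 0.16 (adjusted p = 0.000109). The giant elastic protein gene sls differed by -1.49 ± 0.15, the obscurin gene Obsc by -1.42 ± 0.14 and tn, a ubiquitin ligase of muscle, by -0.68 ± 0.11. Mlc1, a myosin light chain chosen after its values were seen, differed by -0.27 ± 0.12, without a call. TpnC4, another troponin C chosen after its values were seen, read 4.63 and 4.17 in FOXO 5 weeks, 5.60 and 5.39 in control 5 weeks and 3.99 and 4.21 in control 1 week, so that FOXO 5 weeks lay with the young arrays and below the old ones. Control 5 weeks had 3 of the 28 higher and 8 lower against control 1 week. Of 18 genes of the heart matrix, 2 were higher and 3 lower (8 lower with array medians set equal, none higher and 1 lower with all 8 arrays). The perlecan gene trol differed by -1.15 ± 0.13, but 6 of its 7 other probe sets did not pass the test.

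Genes of protein quality control were counted next. All 26 measured genes of the proteasome were within 2-fold and none passed the limma test, nor an unadjusted p under 0.05. Their median difference was 0.12, and -0.08 with array medians set equal, so that its sign depends on centring. Rpt3, an ATPase of the proteasome cap, read 12.42 and 12.51 in FOXO 5 weeks, 12.38 and 12.38 in control 5 weeks and 12.26 and 12.23 in control 1 week. In control 5 weeks the median was 0.09 against control 1 week, and none of the 26 was called by limma. The chaperone list had 25 measured genes of 37 written, so it does not hold every chaperone. Of these 25, 24 were within 2-fold and 1 was lower (5 lower with array medians set equal). The 1 lower as deposited was Hsc70-1, a heat shock cognate, which read 8.43 and 8.57 in FOXO 5 weeks, 8.97 and 8.85 in control 5 weeks and 10.37 and 10.34 in control 1 week, a difference of -1.85 ± 0.12 (adjusted p = 4.14e-05), and its 2 other probe sets were also lower. The chaperonin gene CCT3 read 12.11 and 12.13 in FOXO 5 weeks, 12.16 and 12.15 in control 5 weeks and 11.82 and 11.80 in control 1 week and did not pass the test. Of 31 autophagy and lysosome genes, 2 were higher and 1 lower (1 and 2 with array medians set equal, 1 and none with all 8 arrays), and 30 were within 2-fold. Uvrag (higher) and Atg18b (lower) were called within 2-fold, and the gene outside it was Atg8b, the testis copy of a protein that coats autophagosomes, which read 9.11 and 9.42 in FOXO 5 weeks, 4.46 and 4.53 in control 5 weeks and 6.72 and 6.66 in control 1 week, a difference of 2.58 ± 0.14 (adjusted p = 1.98e-05). Its widely expressed relative Atg8a, chosen after its values were seen, differed by 0.17 ± 0.12.

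The unfolded protein response raises folding enzymes when proteins pile up in the endoplasmic reticulum. All 19 of its measured genes were within 2-fold of control 1 week in FOXO 5 weeks, and none passed the limma test, while 5 had an unadjusted p under 0.05. Their median was 0.08 (-0.12 with array medians set equal). In control 5 weeks 7 of the 19 were higher than control 1 week and none was lower, with a median of 0.42. The secreted survival factor Manf read 12.60 and 12.50 in FOXO 5 weeks, 12.85 and 12.82 in control 5 weeks and 12.26 and 12.20 in control 1 week. It was higher than control 1 week in control 5 weeks by 0.60 ± 0.12 (adjusted p = 0.0109), while the difference in FOXO 5 weeks was 0.32 ± 0.12 (adjusted p = 0.0897). CaBP1 and Ero1L, which help disulfide bonds form and were chosen after their values were seen, differed from the young level by 0.14 ± 0.12 and 0.09 ± 0.13 in FOXO 5 weeks and by 0.58 ± 0.12 and 0.55 ± 0.13 in control 5 weeks. Against control 5 weeks, FOXO 5 weeks differed by -0.44 ± 0.12 in CaBP1 and -0.46 ± 0.13 in Ero1L, and 5 of the 19 genes were called lower there. The chaperone Hsc70-3, chosen after its values were seen, differed from control 1 week by 0.00 ± 0.12 in FOXO 5 weeks and 0.14 ± 0.12 in control 5 weeks.

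A second set of proteasome genes holds the copies used in the testis. Of 13 measured, 11 were higher in FOXO 5 weeks than in control 1 week, with a median of 1.79. Prosalpha3T read 7.61 and 7.43 in FOXO 5 weeks, 3.16 and 2.97 in control 5 weeks and 3.88 and 3.63 in control 1 week, a difference of 3.76 ± 0.15 (adjusted p = 8.47e-06). Prosalpha6T differed by 2.99 ± 0.14, Prosbeta4R1 by 2.64 ± 0.12, Prosbeta5R1 by 2.11 ± 0.13 and Prosbeta5R2 by 3.27 ± 0.23. In Prosalpha3T both FOXO 5 weeks arrays lay above all 4 control arrays. Against control 5 weeks 10 of the 13 copies were higher in FOXO 5 weeks and 1 was lower, and 33 of 36 late spermatogenesis transcripts were higher and none lower. In control 5 weeks against control 1 week 5 of the copies were lower and 1 higher, with a median of -0.31. The median of the sperm transcripts there was -3.13. These medians are not alike in range, since the copies stood lower in control 1 week and had less room to fall. Their median level there was 4.52 and 4.34, against 8.19 and 8.11 for the sperm transcripts. The part of testis tissue in this result was not tested.

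Genes of energy metabolism were mostly within 2-fold of the young level, and their lower counts depended on the centring of the arrays. As deposited, oxidative phosphorylation and the mitochondrial ribosome had a smaller share lower than the 13.8% of all genes. The citric acid cycle and glycolysis lists had a larger one. Of 56 genes of oxidative phosphorylation, 5 were lower, none was higher and 50 were within 2-fold, with 1 positive difference and a median of -0.21. With array medians set equal 37 were lower, and 2 with all 8 arrays. ND-B12, a subunit of complex I, read 11.40 and 11.41 in FOXO 5 weeks, 11.65 and 11.69 in control 5 weeks and 12.39 and 12.26 in control 1 week, a difference of -0.92 ± 0.12 (adjusted p = 0.001). Control 5 weeks had 7 of the 56 lower. Of 69 genes of the mitochondrial ribosome, 5 were lower and 65 within 2-fold, and of 15 genes of the citric acid cycle and fat oxidation, 4 were lower. With array medians set equal these counts were 43 and 9 lower, and with all 8 arrays 1 and 2. Idh3a and Idh3g, subunits of an isocitrate dehydrogenase, differed by -0.91 ± 0.13 and -0.91 ± 0.16. Of 16 genes of glycolysis and glycogen, 4 were lower, against 13 with array medians set equal and 2 with all 8 arrays. Glys, which makes glycogen, read 11.15 and 11.01 in FOXO 5 weeks, 11.69 and 11.58 in control 5 weeks and 12.18 and 12.08 in control 1 week, a difference of -1.05 ± 0.12 (adjusted p = 0.000691). Glyp, which breaks it down, differed by -0.96 ± 0.11 (adjusted p = 0.000731). In both genes the old control lay between the other groups.

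Genes named as FOXO targets in flies were mostly at the young level. All 17 measured were within 2-fold; 1 was higher and 2 were lower, and these 3 lost their calls with 1 array left out and with all 8 arrays. With array medians set equal 1 was higher and 5 were lower. They were Nmdmc, a folate enzyme, at 0.64 ± 0.12 (adjusted p up to 0.0700), the TGF-beta ligand myo at -0.55 ± 0.15 (up to 0.190) and Sod2, the mitochondrial superoxide dismutase, at -0.54 ± 0.15 (up to 0.174). The median was 0.05 (-0.15 with array medians set equal). The activin-like ligand daw read 11.63 and 11.70 in FOXO 5 weeks, 10.90 and 10.84 in control 5 weeks and 11.30 and 11.32 in control 1 week, above the old control by 0.80 ± 0.11 (adjusted p = 0.00198) and above the young level by 0.35 ± 0.11 (adjusted p = 0.0642), the second without a call. The insulin receptor gene InR read 7.69 and 7.34 in FOXO 5 weeks, 8.20 and 8.61 in control 5 weeks and 8.08 and 7.99 in control 1 week. It differed by -0.89 ± 0.18 from the old control (adjusted p = 0.0115) and by -0.52 ± 0.18 from the young level (adjusted p = 0.0788), the second without a call. The cytokine upd2 read 5.15 and 5.01 in FOXO 5 weeks, 5.86 and 6.25 in control 5 weeks and 4.96 and 4.57 in control 1 week, so that FOXO 5 weeks lay near the young arrays and below the old ones. The fat lipase bmm, the TOR inhibitor Sesn and the gluconeogenic enzyme Pepck1 differed from the young level by 0.24 ± 0.13, -0.39 ± 0.13 and 0.06 ± 0.12, without a call. Of 18 genes of the insulin and TOR pathway, 1 was higher and 3 were lower (none higher and 6 lower with array medians set equal, none and 2 with all 8 arrays). The lower ones as deposited were foxo, Akh and the insulin-like peptide gene Ilp5, which differed by -1.34 ± 0.23 (adjusted p = 0.00507). The adipokinetic hormone Akh differed by -0.88 ± 0.14 and its receptor gene AkhR, chosen after its values were seen, by -0.07 ± 0.12.

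Immune transcripts held both directions. Of 16 antimicrobial peptide genes, 7 were higher and 1 lower. With all 8 arrays 3 were higher. CecB, a cecropin, read 10.79 and 10.01 in FOXO 5 weeks, 10.31 and 9.70 in control 5 weeks and 7.99 and 7.89 in control 1 week, a difference of 2.46 ± 0.28 (adjusted p = 0.00058). AttD, an attacin, read 9.34 and 8.84 in FOXO 5 weeks, 10.24 and 9.72 in control 5 weeks and 7.10 and 7.14 in control 1 week, a difference of 1.97 ± 0.22. In both genes the old groups lay above the young arrays. In CecB they overlapped each other, and in AttD FOXO 5 weeks lay below control 5 weeks. Drsl4, of the drosomycin family, was lower at -2.49 ± 0.20, while Drs itself, chosen after its values were seen, differed by 0.24 ± 0.12 without a call. Of 18 stress and immune recognition genes, 4 were higher and 1 lower (2 higher with all 8 arrays, 4 lower with array medians set equal). The signalling protein Sting, which lies upstream of Nazo in flies, read 11.49 and 11.10 in FOXO 5 weeks, 11.33 and 11.17 in control 5 weeks and 9.94 and 10.03 in control 1 week, a difference of 1.31 ± 0.16 (adjusted p = 0.000786). PGRP-SC2, which cleaves peptidoglycan, differed by 2.17 ± 0.14, a call lost with all 8 arrays (adjusted p = 0.0826), and the stress peptide TotC by -2.76 ± 0.18 (adjusted p = 4.27e-05). Of 34 antioxidant and detoxification genes, 4 were higher and 8 lower, with 27 within 2-fold. With all 8 arrays 2 were higher and 3 lower. GstD5, a glutathione transferase, read 10.41 and 10.22 in FOXO 5 weeks, 11.69 and 11.55 in control 5 weeks and 8.16 and 8.11 in control 1 week and was above the young level but below the old control. The metallothionein MtnD differed by 1.85 ± 0.13, the transferase GstD3 by -1.71 ± 0.12 and the superoxide dismutase Sod3 by -1.35 ± 0.14.

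Late spermatogenesis transcripts divided into 3 kinds in FOXO 5 weeks. Of 36 measured, 17 were higher, 4 lower and 15 not called against control 1 week, while in control 5 weeks 29 were lower and none higher than control 1 week. The testis beta-tubulin betaTub85D read 10.70 and 10.66 in FOXO 5 weeks, 4.58 and 4.50 in control 5 weeks and 7.52 and 7.49 in control 1 week, a difference of 3.17 ± 0.11 (adjusted p = 7.99e-06). Tpl94D, which helps replace histones in sperm, read 9.31 and 9.16 in FOXO 5 weeks, 4.96 and 4.75 in control 5 weeks and 6.11 and 6.21 in control 1 week, a difference of 3.07 ± 0.13. The protamine ProtA, chosen after its values were seen, read 9.89 and 9.75 in FOXO 5 weeks, 4.08 and 3.67 in control 5 weeks and 7.41 and 7.39 in control 1 week, a difference of 2.42 ± 0.16. In these 3 genes all 3 groups were apart, with FOXO 5 weeks highest. Mst84Dc and Mst87F, both of the sperm tail and chosen after their values were seen, stood at the young level. Mst84Dc read 12.23 and 12.27 in FOXO 5 weeks, 8.13 and 8.12 in control 5 weeks and 12.16 and 12.30 in control 1 week, and Mst87F differed from control 1 week by -0.05 ± 0.13 (adjusted p = 0.791). The 4 lower transcripts, chosen after their values were seen, were Pif2, hale, schuy and w-cup, and all but Pif2 belong to genes known to be transcribed after meiosis. Pif2 read 7.23 and 7.55 in FOXO 5 weeks, 5.11 and 4.30 in control 5 weeks and 9.64 and 9.69 in control 1 week, a difference of -2.27 ± 0.25 (adjusted p = 0.000477). The others differed by -1.86 ± 0.14 (hale), -1.47 ± 0.17 (schuy) and -1.0 ± 0.13 (w-cup), and the last lost its call with all 8 arrays (adjusted p = 0.265).

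**Figure D5:**
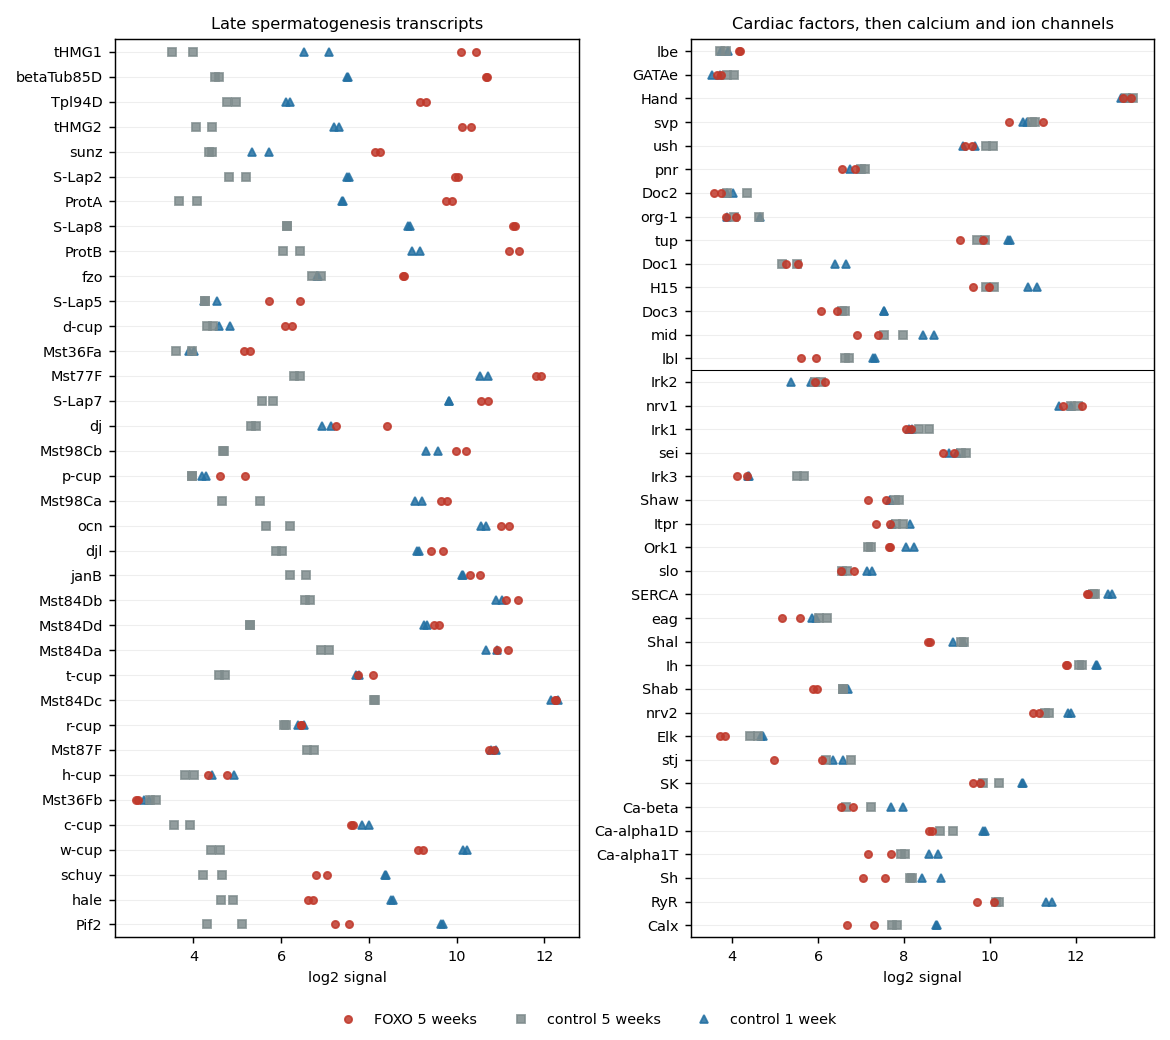
Log2 signal on each array for 36 late spermatogenesis transcripts (left) and for 14 cardiac transcription factors above the line and 24 calcium and ion channel genes below it (right), each sorted by the difference between FOXO 5 weeks and control 1 week. Red circles are FOXO 5 weeks, grey squares control 5 weeks and blue triangles control 1 week, 2 arrays each. In the left panel red passes from right of blue to left of it, and grey lies leftmost in most rows; in the right panel red lies left of blue in most rows.

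Other germline and reproductive lists did not share 1 direction. Of 24 accessory gland transcripts 17 were lower and none higher, with a median of -0.93, and 12 were lower with all 8 arrays. Acp53Ea, a seminal peptide, read 3.12 and 3.49 in FOXO 5 weeks, 4.15 and 3.93 in control 5 weeks and 6.54 and 6.24 in control 1 week, a difference of -3.09 ± 0.18 (adjusted p = 2.41e-05). Control 5 weeks had 13 of the 24 lower. Of 7 Y-linked fertility genes, 3 were higher, at low levels; ARY read 3.72 and 3.92 in FOXO 5 weeks, 2.73 and 2.56 in control 5 weeks and 2.58 and 2.51 in control 1 week, a difference of 1.28 ± 0.13 (adjusted p = 0.000336). Of 25 female germline and eggshell transcripts 3 were higher and 8 lower, all by less than 1 on the log2 scale (1 higher and 12 lower with array medians set equal, 0 and 1 with all 8 arrays). All 6 female-specific transcripts were higher (2 with all 8 arrays); the sixth, fit, made in the fat body of the head, read 10.89 and 10.96 in FOXO 5 weeks, 9.89 and 10.11 in control 5 weeks and 8.83 and 8.80 in control 1 week, a difference of 2.11 ± 0.13. Of 41 cytosolic ribosome genes 5 were higher (3 with all 8 arrays), led by RpL10Aa at 2.82 ± 0.33, and 37 were within 2-fold. The others called were RpS10a, RpS28-like, RpL22-like and RpS5b, and the median of the list was 0.09 (-0.11 with array medians set equal).

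Markers of other cells near the heart were mixed. Of 15 fat body and oenocyte genes, 2 were lower (1 with all 8 arrays) and 14 within 2-fold, and their median level lay between 13.16 and 13.25 on the 6 arrays. Of 16 hemocyte genes 6 were lower, among them the prophenoloxidases PPO1 and PPO2 at -1.0 ± 0.14 and -1.01 ± 0.13, the first of which lost its call with all 8 arrays (adjusted p = 0.0568). The count was 2 with all 8 arrays. Of 12 nephrocyte genes 2 were higher and 1 lower, and 7 of the 12 differences were negative. With array medians set equal 2 were higher and 4 lower, and with all 8 arrays 1 and 1. Klf15 was higher by 0.96, a call lost with all 8 arrays (adjusted p = 0.430). The gene pyd was not called at -0.42 on the probe set used. Its other probe sets were called lower at -1.34, -1.77 and -1.13, or not called at -1.26 and -0.23, so its change is uncertain. The marker odd read 8.66 and 8.50 in FOXO 5 weeks, 8.40 and 8.41 in control 5 weeks and 7.31 and 6.83 in control 1 week, a difference of 1.51 ± 0.17 (adjusted p = 0.000578), and the lower gene, Had1, read 10.92 and 10.74 in FOXO 5 weeks, 11.56 and 11.99 in control 5 weeks and 12.09 and 12.34 in control 1 week, a difference of -1.38 ± 0.18 (adjusted p = 0.00102). Of 12 neuronal genes 5 were lower, nSyb of synaptic vesicles at -1.21 ± 0.16, a call lost with all 8 arrays (adjusted p = 0.0650), where 1 of the 12 was lower. Of 23 gut and tubule genes 4 were higher and 3 lower, while control 5 weeks had 9 higher and none lower. With array medians set equal 9 were lower. LysX, a lysozyme of the gut, read 10.11 and 10.47 in FOXO 5 weeks, 9.30 and 9.47 in control 5 weeks and 7.08 and 6.77 in control 1 week, a difference of 3.37 ± 0.17 (adjusted p = 1.69e-05). The part of these cells in the results above was not tested.

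The large gene families held both directions. Of 66 Cpr cuticle genes, 18 were lower and 2 higher, and of these Cpr49Ac read 9.99 and 9.85 in FOXO 5 weeks, 12.41 and 12.28 in control 5 weeks and 7.13 and 7.49 in control 1 week, a difference of 2.61 ± 0.15 (adjusted p = 2.69e-05). Its FOXO 5 weeks arrays lay above the young ones and below the old control. Of 83 cytochrome P450 genes 10 were higher and 19 lower. Cyp304a1 read 10.69 and 10.87 in FOXO 5 weeks, 8.75 and 9.06 in control 5 weeks and 6.89 and 7.04 in control 1 week, a difference of 3.81 ± 0.15 (adjusted p = 8.84e-06), and Cyp312a1 differed by 3.04 ± 0.19 while control 5 weeks did not pass the test at -0.13 ± 0.19. Cyp4e3 differed by 2.80 ± 0.12. Of 35 UDP-glycosyltransferases 3 were higher and 11 lower, with Ugt305A1 at 2.04 ± 0.12 and Ugt37A3 at -2.57 ± 0.13. Of 47 odorant-binding proteins 3 were higher and 11 lower. With array medians set equal the lower counts of these families were 33 (Cpr), 33 (cytochrome P450), 15 (UDP-glycosyltransferases) and 19 (odorant-binding). With all 8 arrays they were 9, 5, 4 and 7, and the higher counts of the P450 and UDP-glycosyltransferase genes were 4 and 1.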

How the data were processed

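Hearts were profiled on 8 Affymetrix arrays, 2 per group, per the labels' protocols. The deposited values are log2 signal, 1 per probe set, normalized between arrays by the authors. How probes were summarised and arrays normalized is not stated in the labels. The only tool in the submitters' processing notes is limma, with no version. The number of arrays limits the precision.

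From these values, limma 3.58.1 in R 4.3.3 was fitted with 1 mean per group to the 6 arrays of FOXO 5 weeks, control 5 weeks and control 1 week (3 residual degrees of freedom). The moderated test was two-sided, and p-values were adjusted by Benjamini-Hochberg over 18769 probe sets. Of 18952 probe sets 183 were array controls, 13647 carried 1 gene symbol, 402 several and 4720 none. The reference table held 13544 of the single symbols, and the brightest probe set stood for each of 11982 genes. A separate exact test of 1 value with 2 arrays against 2 cannot go below p = 0.333, so single values were not tested alone.

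Named genes were the 10 largest rises and 10 largest falls past the test, and the 10 genes farthest above and 10 farthest below in control 5 weeks among those within 2-fold. To these came the 5 farthest above and 5 farthest below both controls, foxo, and up to 5 members per list with the smallest p. All cardiac factors, FOXO targets, female-specific and male dosage compensation genes could be named too, and 23 more were added after their values were seen. Members and lists were chosen with earlier results of these data known. The procedure was tested on simulated data. Alternatives were a replicate block, a margin of 1.5-fold, equal array medians, quantile normalization, arrayWeights, a robust variance trend, the brightest probe set per gene, no probe sets among the dimmest 40%, a threshold of 0.1, 4 or 8 arrays in the fit, and 1 array fewer. No sequence or coordinate was used.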

Additional observations from a re-analysis of the deposited data

How the results depend on the processing

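No called difference of a named gene changed its sign under the alternatives run. With array medians set equal, some list medians given above did: proteasome (-0.08, against 0.12) and endoplasmic reticulum stress (-0.12, against 0.08). Those of FOXO targets (-0.15, against 0.05) and the cytosolic ribosome (-0.11, against 0.09) did so too. The balance of calls also turned, to 60.6% higher with all 8 arrays for FOXO 5 weeks against control 1 week (46.6% as deposited) and as given below with medians equal. Higher calls of FOXO 5 weeks against control 1 week were 1253 with all 8 arrays, against 2100, and 1486 to 2018 with 1 array left out. Lower calls were 5755 with array medians set equal, 816 with all 8 arrays and 1179 to 2339 with 1 array left out, against 2406. Probe sets within 2-fold were 15056 of 18769 as deposited (80.2%). They were 8501 of 11261 without the dimmest 40% (75.5%) and 9218 of 11982 with 1 probe set per gene (76.9%). A margin of 1.5-fold held 8488 of 18769 (45.2%). For control 5 weeks against control 1 week, higher calls were 3162 with medians equal, 440 with all 8 arrays and 630 to 1684 with 1 array left out, against 1491; lower calls were 857 with all 8 arrays and 1077 to 1943 with 1 left out, against 1788. For FOXO 5 weeks against control 5 weeks, lower calls were 12899 with medians equal, 3952 at an adjusted p under 0.1, 576 with all 8 arrays and 1284 to 1817 with 1 left out, against 2494. Equal medians also moved the share of higher calls to 69.5% (45.5% as deposited) for control 5 weeks against control 1 week and to 10.4% (41.7%) for FOXO 5 weeks against control 5 weeks. The foxo difference lost its call with all 8 arrays (-0.48) and ranged from -0.52 to -0.45 with 1 array left out. The causes were not tested, beyond the wider spread of the FOXO 1 week replicates in the fit of all 8 arrays and the fewer features or arrays of the smaller fits.

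Replicate numbers are shared between the groups, but same-numbered deviations correlated at 0.07, 0.33 and 0.11, which does not show pairs. With the replicate block the calls were 2214 higher and 2676 lower and 15310 were within 2-fold. Of 245 named genes 167 were called, and 67 of these lost the call under some alternative, 59 of them with all 8 arrays. Of the other 50 probe sets of named genes 28 had another call than the one used, and 1, of bol, had the opposite one. The array medians differ between groups, so small shifts of whole lists cannot be read.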
